A study of Mus musculus with 24 samples.

Results

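The genes described here are 9 markers of adipocyte progenitors and stroma, the fibroblast-like precursor cells of fat: Pdgfra, Pdgfrb, Ly6a, Cd34, Dpt, Ebf1, Zfp423, Pi16 and Dpp4. They were taken by symbol, through their Ensembl identifiers, from a table of raw counts, and they are 9 of its 12615 genes. All 9 were in the table and all 9 passed the filter on low counts, so that each was tested. The libraries came from 24 samples labelled brown fat (BAT), with 6 mice in each of 4 groups. Cre- mice carried floxed alleles of TBLR1 and TBL1 (TBLR1 fl/fl and TBL1 fl/fl) and no recombinase, and BATdKO mice carried the same floxed alleles together with Ucp1CreERT2, a tamoxifen-inducible Cre recombinase under the Ucp1 promoter, which is active in thermogenic adipocytes. Per the labels every mouse was female and raised at room temperature, and tamoxifen preceded the temperature treatment. One pair of groups, a Cre- and a BATdKO group, was then kept at 30°C for 4 days, and the other pair was cooled in steps and kept at 8°C for 6 days. A legend of the study gives males for these mice, for the cold groups its text gives a shorter exposure, and for age at tamoxifen the labels give years where the methods of the study give weeks.

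Fat holds, beside its adipocytes, fibroblast-like cells that lie in the connective tissue and along vessels and that can become adipocytes. Such cells are commonly recognised by the surface receptor PDGFRα together with SCA-1 and CD34. Cells positive for DPP4 and PI16 are described as interstitial progenitors that give rise to more committed preadipocytes, in which transcription factors such as ZFP423 and the EBF proteins act before the adipocyte programme begins. Several of these genes are also active in other cells: Ebf1 in adipocytes and B cells, Pdgfrb in the mural cells of vessels, Cd34 and Ly6a in endothelium, and Dpp4 in hepatocytes.

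The proximal promoters of the 3 markers that passed a test of cold (Cd34, Dpt and Pdgfra) and of Dpp4 are shown from RefSeq on GRCm38.p6, each running 5′ to 3′ on the strand of its gene from 250 bases before the start of transcription to 50 bases after it. In all, 7 of the 9 markers matched an entry of the RefSeq table, with 9 promoters between them. Capitals mark a match to a searched motif.
Cd34, chr1:194938571-194938870, plus strand: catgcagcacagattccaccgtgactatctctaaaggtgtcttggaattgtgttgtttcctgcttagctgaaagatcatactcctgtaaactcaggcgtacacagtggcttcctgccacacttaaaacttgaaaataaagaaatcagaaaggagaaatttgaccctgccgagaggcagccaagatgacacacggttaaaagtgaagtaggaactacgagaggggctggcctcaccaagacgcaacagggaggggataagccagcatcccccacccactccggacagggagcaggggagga
Dpt, chr1:164796413-164796712, plus strand: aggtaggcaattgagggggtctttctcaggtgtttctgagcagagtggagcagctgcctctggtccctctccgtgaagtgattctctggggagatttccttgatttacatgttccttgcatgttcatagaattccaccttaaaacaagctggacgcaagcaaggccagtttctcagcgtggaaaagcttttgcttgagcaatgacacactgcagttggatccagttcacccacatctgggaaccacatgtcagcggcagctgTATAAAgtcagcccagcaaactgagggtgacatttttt
Pdgfra, chr5:75152001-75152300, plus strand: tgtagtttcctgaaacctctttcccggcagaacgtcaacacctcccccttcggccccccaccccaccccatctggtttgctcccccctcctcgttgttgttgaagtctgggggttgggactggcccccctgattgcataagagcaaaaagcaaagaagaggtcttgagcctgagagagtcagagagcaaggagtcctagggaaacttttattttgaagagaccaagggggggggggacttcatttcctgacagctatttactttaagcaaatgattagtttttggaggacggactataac
Dpp4, chr2:62412182-62412481, minus strand: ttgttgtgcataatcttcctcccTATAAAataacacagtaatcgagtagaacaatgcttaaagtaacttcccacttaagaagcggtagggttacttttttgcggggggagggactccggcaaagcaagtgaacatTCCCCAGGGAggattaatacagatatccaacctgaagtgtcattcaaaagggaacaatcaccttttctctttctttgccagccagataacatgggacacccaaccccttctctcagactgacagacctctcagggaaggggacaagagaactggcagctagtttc

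Both strands of the 9 promoters were searched for 5 motifs. The palindrome CCCNNGGG, the core of the sequence that EBF proteins bind, occurred in 13.7% of the 32851 mouse promoters of this length and was matched in Dpp4 and in one of the promoters of Zfp423. Its longer form, with a T before and an A after the core, occurred in 0.904% of promoters and had a match in Dpp4 alone among the markers, at position -115 from the start, where both forms overlap. The TATA box motif TATAAA occurred in 13.6% of promoters and was matched in Dpt at +13, after the start, and in Dpp4 at -227. The GC box motif GGGCGG occurred in 35.7% of promoters and was matched in both promoters of Zfp423. The cAMP response element TGACGTCA occurred in 1.79% of promoters and was matched in none of the 9. The windows of Cd34 and Pdgfra held no match to any of the 5 motifs. These matches describe letters in the windows, and binding was not measured.

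The total count per library ran from 699703 (Cre- at 30°C, mouse m4) to 11527643, with a median of 6644364.5, and the only other library under 3000000 was BATdKO at 8°C, mouse m1 (2738613). Tbl1xr1 and Tbl1x, the floxed genes, which encode TBLR1 and TBL1, had more counts under the BATdKO label than under the Cre- label. At 8°C the log2 fold change was 0.92 (SE 0.17, adjusted p = 0.00348 in edgeR's quasi-likelihood test) for Tbl1xr1 and 0.39 (SE 0.10, adjusted p = 0.0633) for Tbl1x. At 30°C the library labelled Cre- m6 had 38.6 CPM (counts per 1000000 of the library) of Tbl1xr1 and 548 CPM of Ucp1, and the library labelled BATdKO m6 had 17.0 and 84.7 CPM, so that the first was the highest of its group and the second the lowest of its group for both genes. Groups are therefore named by their labels, and marker calls that use 30°C libraries are also given without this pair. Among genes of the other lists, this was done only for Ucp1 and Dio2. Hepatocyte genes were abundant in every library labelled brown fat: a list of 9 liver markers summed to between 31117 and 45669 CPM and lay above 10 brown adipocyte markers in 24 of 24 libraries, and Alb exceeded Ucp1 in 24 of 24. Xist and Y-linked genes were each above 3 counts in 24 of 24 libraries, so that a single sex could be read from none. A list of skeletal muscle fibre genes summed to between 1.57 and 8319 CPM. In the submitters' numbering, the libraries of warm and of cold mice formed separate runs, so that temperature and handling cannot be told apart.

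All 9 markers were low to moderate in level. Ebf1, which encodes a transcription factor of early adipocyte and B cell development, had a median of 42.9 CPM over the 24 libraries and exceeded the next marker in 24 of 24. Dpp4, a cell surface peptidase also known as CD26, had a median of 12.1 CPM. Ly6a, which encodes the surface protein SCA-1 used to sort progenitors, followed with 12.0 CPM, and Dpt, which encodes the matrix protein dermatopontin of fibroblasts, with 9.65 CPM. The order of these 3 was not fixed, since Dpp4 lay above Ly6a in 14 of 24 libraries and Ly6a above Dpt in 13 of 24. Cd34, a surface sialomucin, had a median of 6.24 CPM and lay below Dpt in 23 of 24 libraries and above Pdgfrb in 20 of 24.

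Pdgfrb (3.17 CPM), Pdgfra (2.78 CPM), Zfp423 (1.96 CPM) and Pi16 (1.76 CPM) formed a low end in which neighbours changed places between libraries: Pdgfrb was above Pdgfra in 15 of 24, Pdgfra above Zfp423 in 16 and Zfp423 above Pi16 in 14. The kit makes a single tag per transcript, so these levels are compared between genes without a correction for length. Depth put a limit on the precision. The median count ran from 12.0 for Pi16 to 245.5 for Ebf1, for which counting error by itself gives an SD of 28.9% and 6.38% of the value. Between mice of a group, the SD was 32.0% to 85.2% of the mean for Pi16 and 22.6% to 38.5% for Ebf1. Pdgfra and Pi16 had 0 counts in the shallowest library, Cre- at 30°C m4, where 3 counts correspond to 4.10 CPM, and Pi16 also had 0 counts in Cre- at 8°C m6, where the limit is 0.379 CPM. Such limits cover counting error only.

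**Figure D1:**
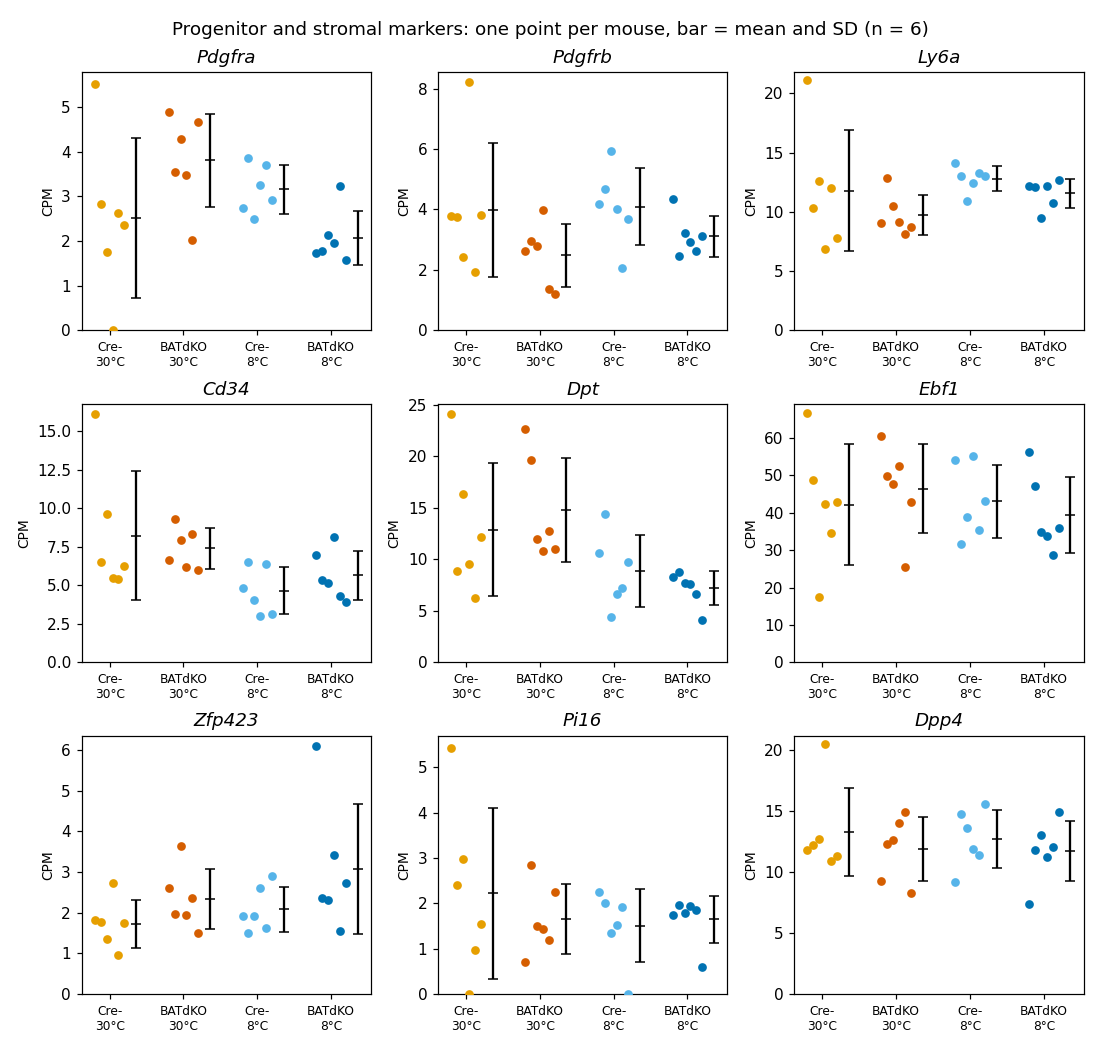
Level of each marker in CPM (y axis, from 0, with its own range in each panel) in the 4 groups, with a point for each mouse and a bar for the mean and SD (n = 6). Cre- m1 is the highest of its group at 30°C for 6 of the 9 markers, and Dpt is the marker whose BATdKO groups at 30°C and 8°C do not overlap.

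The markers differed in how widely mice of a group were spread. The Cre- group at 30°C had the largest coefficient of variation of the 4 groups for every marker but Zfp423, with 85.2% for Pi16, 71.2% for Pdgfra, 50.7% for Cd34 and 50.3% for Dpt. Its m1 library had the highest summed level of the 9 markers of any library, 156 CPM, against a median of 93.1 CPM, and was the highest of its group for 6 of the 9. The same library had 3546 CPM of skeletal muscle fibre genes and the highest sum over 11 other interstitial progenitor genes, 65.4 CPM against a median of 38.2. Ly6a in Cre- mice at 8°C was the tightest case, with a coefficient of variation of 8.37% around 12.8 ± 1.07 CPM (SD, n = 6).

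**Figure D2:**
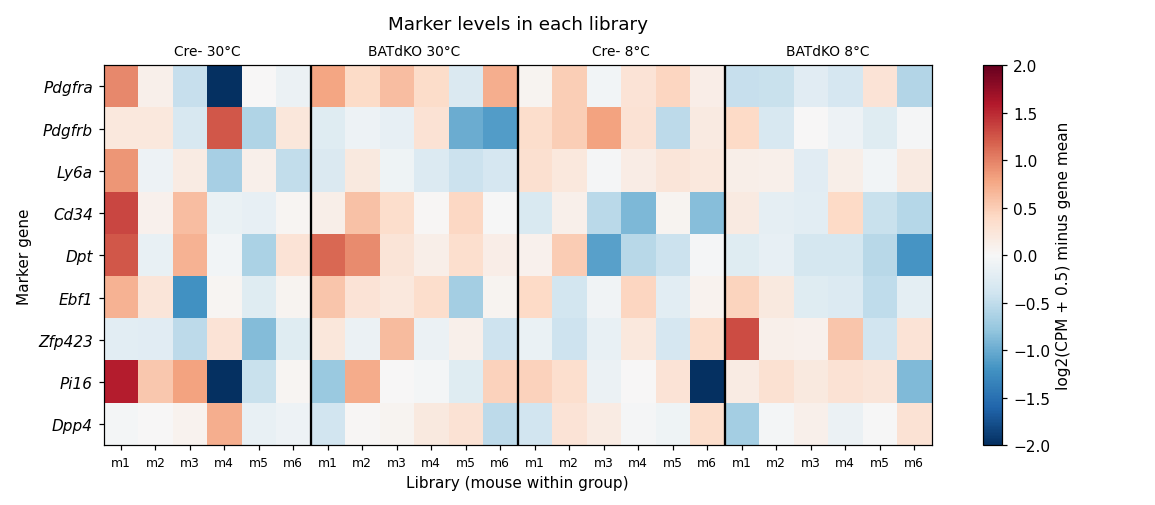
Log2(CPM + 0.5) of each marker (rows) in each of the 24 libraries (columns, grouped), as the difference from the mean of that marker over all libraries, with the colours ending at 2 either way. Cre- at 30°C m1 is red in 6 rows, and the darkest cells are libraries in which Pdgfra or Pi16 had 0 counts.

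The comparison of 8°C with 30°C asks how these genes differed between cold and warm mice, first in those labelled Cre-. In Cre- mice, Cd34 was the marker that passed the adjusted threshold of 0.1, and it was lower in the cold. At 30°C the 6 Cre- libraries ran from 5.38 through a median of 6.38 to 16.1 CPM, and at 8°C from 3.03 through 4.42 to 6.52 CPM. Of the cold libraries, 4 of 6 lay below every warm one, and the groups overlapped through the other two. The log2 fold change was -0.93 (SE 0.25, adjusted p = 0.0237 in edgeR's test), which is 1.91-fold lower. This was 1 of 9 markers called, beside 9.15% of all tested genes called in either direction and 3.59% called lower, and 1 in 9 lay near the first of these shares.

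The Cd34 call rested on 1 library. Without Cre- at 30°C m1, in which Cd34 stood at 16.1 CPM, the log2 fold change was -0.58 with an adjusted p of 0.144, and it was the only one of 24 omissions of a single mouse that ended the call. Without both 30°C libraries numbered m6 it was -1.04 (adjusted p = 0.0106). The sums of other cells' markers moved between the same groups: endothelial genes ran from 197 to 238 CPM at 30°C and from 232 to 310 CPM at 8°C, brown adipocyte genes from 749 to 4371 and from 2784 to 5126 CPM, and skeletal muscle fibre genes from 3.40 to 8319 and from 4.41 to 1379 CPM. No marker of these lists that was in the table was at 0 throughout a group, and their part in the result was not tested. In bulk tissue, fewer cells of a type and less RNA per cell cannot be told apart.

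The other surface and matrix markers of Cre- mice did not pass. Dpt ran from 6.21 through 10.9 to 24.1 CPM at 30°C and from 4.41 through 8.49 to 14.4 CPM at 8°C. Its groups overlapped over most of their range, and its log2 fold change of -0.61 (SE 0.28) had an adjusted p of 0.231 in edgeR's test. Without Cre- at 8°C m2, the highest cold library for Dpt, the value was -0.79 and the adjusted p 0.0997, which raised the number of markers called to 2. Without Cre- at 30°C m1 it was -0.30 (adjusted p = 0.60), and these were the ends of the range over 24 such omissions. Pi16, which encodes a peptidase inhibitor of interstitial progenitors, had a log2 fold change of -0.86 (95% interval -1.76 to 0.03). Its counts in these groups ran from 0 to 69.

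Pdgfra, the receptor of PDGF-A and related ligands, ran from 0 through 2.49 to 5.51 CPM at 30°C and from 2.49 through 3.08 to 3.85 CPM at 8°C in Cre- mice. The cold libraries lay inside the range of the warm ones, and the log2 fold change was 0.06 (95% interval -0.47 to 0.60). Pdgfrb, the receptor of PDGF-B, gave 0.26 (-0.27 to 0.79) and Zfp423, a zinc finger factor of preadipocyte commitment, 0.41 (-0.15 to 0.97). Narrower intervals were found for Ebf1 (0.03, -0.44 to 0.49), Ly6a (0.03, -0.32 to 0.38) and Dpp4 (0.06, -0.26 to 0.37).

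In BATdKO mice, Dpt and Pdgfra passed the threshold for cold, and both were lower at 8°C. Dpt ran from 10.8 through 12.3 to 22.7 CPM at 30°C and from 4.11 through 7.65 to 8.75 CPM at 8°C. All 6 cold libraries lay below all 6 warm ones, a separation found in 2.99% of all tested genes. The log2 fold change was -1.04 (SE 0.29, adjusted p = 0.0361 in edgeR's test), which is 2.05-fold lower. The call held in each of the 24 fits that left out a single mouse, with adjusted p from 0.0147 to 0.0954, and without both 30°C libraries numbered m6 (-1.12, adjusted p = 0.0295).

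Pdgfra ran from 2.03 through 3.90 to 4.88 CPM at 30°C and from 1.57 through 1.86 to 3.24 CPM at 8°C in BATdKO mice. Of the cold libraries 4 of 6 lay below every warm one, and the overlap came from m3 and m5 among the cold and m5 among the warm libraries. The log2 fold change was -0.84 (SE 0.28, adjusted p = 0.0841), which is 1.80-fold lower. These 2 of 9 markers stand beside 7.07% of all tested genes called in either direction and 3.31% called lower, and that difference was not tested. The Pdgfra call was lost in 9 of 24 fits that left out a single mouse, with adjusted p up to 0.184 without BATdKO at 8°C m2, and without both 30°C libraries numbered m6 (-0.78, adjusted p = 0.147). The other mice whose omission ended it were m1, m2, m3 and m6 of BATdKO at 30°C and m1, m3, m4 and m6 of BATdKO at 8°C, and the direction was the same in each.

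Between the same BATdKO groups the liver list ran from 31117 to 39452 CPM at 30°C and from 35480 to 45669 CPM at 8°C, brown adipocyte genes from 1282 to 4264 and from 3128 to 6020 CPM, and skeletal muscle fibre genes from 17.1 to 575 and from 1.57 to 140 CPM. Their part in the results on Dpt and Pdgfra was not tested. Cd34, called in Cre- mice, had a log2 fold change of -0.41 (SE 0.26, adjusted p = 0.429) in BATdKO mice, where 4 of 6 cold libraries lay below every warm one. The remaining markers did not pass: Ebf1 gave -0.26 (95% interval -0.72 to 0.21), Ly6a 0.24 (-0.12 to 0.60), Pdgfrb 0.20 (-0.38 to 0.78), Zfp423 0.30 (-0.23 to 0.83), Pi16 -0.04 (-0.99 to 0.92) and Dpp4 0.0016 (-0.32 to 0.32).

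**Figure D3:**
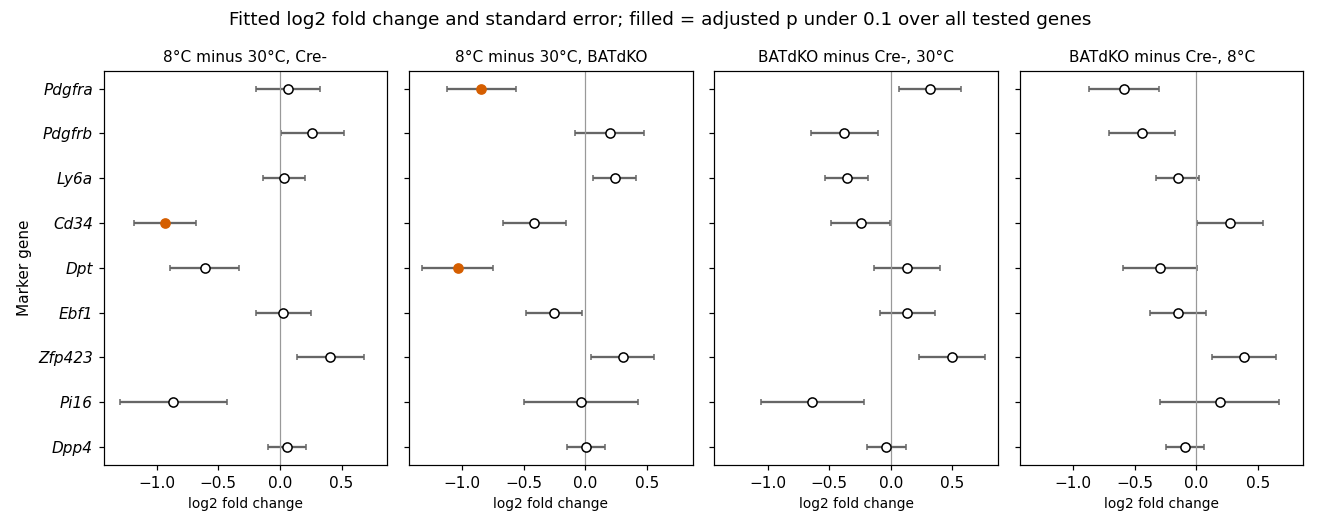
Fitted log2 fold change (x axis) of each marker in the 4 comparisons, with bars of 1 standard error and filled points where the adjusted p was under 0.1. Cd34 is filled for cold in Cre- mice, Dpt and Pdgfra are filled for cold in BATdKO mice, and no point is filled for genotype at either temperature.

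The comparison of BATdKO with Cre- mice at 8°C asks how these genes differed in the cold between mice labelled with and without the Cre that targets both corepressor genes, of which neither had fewer counts under the BATdKO label. None of the 9 markers passed the adjusted threshold in edgeR's test, beside 1.82% of all tested genes, and DESeq2 called 0 of 9 as well. At an unadjusted p under 0.05 there was 1 marker, Pdgfra, beside 9.24% of all genes. It ran from 2.49 through 3.08 to 3.85 CPM in Cre- mice and from 1.57 through 1.86 to 3.24 CPM in BATdKO mice. All but 1 of the BATdKO libraries, 5 of 6, lay below every Cre- library, and m5 lay within their range. The log2 fold change was -0.59 (SE 0.28, adjusted p = 0.533 in edgeR's test). This comparison and that of cold in BATdKO mice share the BATdKO libraries at 8°C.

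Among the other markers at 8°C, Pdgfrb had 3.12 ± 0.673 CPM in BATdKO and 4.09 ± 1.27 CPM in Cre- mice (SD, n = 6), a log2 fold change of -0.44 (95% interval -0.99 to 0.11). Zfp423 gave 0.39 (-0.15 to 0.93), and its highest library, BATdKO m1 at 6.10 CPM, held 14 counts. Cd34 gave 0.27 (-0.28 to 0.83), Dpt -0.29 (-0.91 to 0.32), Ebf1 -0.15 (-0.62 to 0.31) and Ly6a -0.15 (-0.51 to 0.20). Pi16 gave 0.19 (-0.80 to 1.18) and Dpp4 -0.09 (-0.41 to 0.23). The Dpp4 interval was the narrowest of the 9 and that of Pi16 the widest.

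At 30°C the same genotype comparison called 0 of 9 markers in edgeR's test, where 0% of all genes were called, and DESeq2 also called 0 of 9. One marker, Ly6a, had an unadjusted p under 0.05, beside 10.4% of all genes. It ran from 6.83 through 11.2 to 21.1 CPM in Cre- mice and from 8.13 through 9.12 to 12.9 CPM in BATdKO mice. The BATdKO libraries lay inside the range of the Cre- libraries, and 5 of 6 lay below the Cre- median. The log2 fold change was -0.36 (SE 0.17, adjusted p = 0.472 in edgeR's test), and without both libraries numbered m6 it was -0.46 (adjusted p = 0.183). Over the 24 omissions of a single mouse it ran from -0.47 to -0.088, the last without Cre- at 30°C m1 (adjusted p = 0.890). With that pair left out, 500 genes were called in this comparison and none was a marker.

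Zfp423 at 30°C gave a log2 fold change of 0.50 (95% interval -0.06 to 1.05) between 2.34 ± 0.741 CPM in BATdKO and 1.73 ± 0.590 CPM in Cre- mice (SD, n = 6). Pi16 gave -0.64 (-1.49 to 0.22), Pdgfrb -0.38 (-0.93 to 0.18) and Pdgfra 0.32 (-0.20 to 0.84). Cd34 gave -0.24 (-0.74 to 0.25), Dpt 0.13 (-0.42 to 0.69), Ebf1 0.13 (-0.33 to 0.60) and Dpp4 -0.04 (-0.35 to 0.28).

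The interaction of genotype and temperature tests whether cold moved a gene differently in the 2 genotypes. It called 0 of 9 markers in edgeR's test and 0 of 9 in DESeq2, beside 0.0961% of all genes. Pdgfra had an unadjusted p under 0.05, beside 8.05% of all genes, with a difference in log2 fold change of -0.91 (SE 0.38, adjusted p = 0.542). For Cd34 the difference was 0.52 (95% interval -0.22 to 1.26) and for Dpt -0.43 (-1.25 to 0.40). The calls of Cd34 in Cre- mice and of Dpt and Pdgfra in BATdKO mice were not shown to differ between genotypes.

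Genes that work with these markers were read from lists named for their roles. Of the 4 PDGF ligands, 3 were in the table. Pdgfa, the ligand of PDGFRα, fell in the cold in both genotypes, by a log2 fold change of -0.70 in Cre- mice (SE 0.14, adjusted p = 0.00194 in edgeR's test) and of -0.47 in BATdKO mice (SE 0.14, adjusted p = 0.054). Its level in Cre- mice was 11.2 ± 0.861 CPM at 30°C and 6.74 ± 1.08 CPM at 8°C (SD, n = 6), and these groups did not overlap, as was so for 2.93% of all tested genes. The call in BATdKO mice was lost in 5 of 24 fits that left out a single mouse (m1 and m4 at 30°C, m2, m3 and m5 at 8°C, all BATdKO), with adjusted p up to 0.135. Pdgfb, the ligand of both PDGF receptors, rose in Cre- mice by 1.01 (SE 0.21, adjusted p = 0.00242), from 4.01 ± 1.94 to 8.97 ± 2.22 CPM, while in BATdKO mice its mean was 6.01 CPM at 30°C and 7.89 CPM at 8°C.

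Of 11 other interstitial progenitor genes in the table, edgeR called 1 higher and 1 lower with cold in Cre- mice, and 1 higher in BATdKO mice. Of all tested genes, 9.15% and 7.07% were called in either direction. DESeq2 called 1 higher and 1 lower in each genotype. At an unadjusted p under 0.05 in edgeR's test, 4 were lower and 1 higher in BATdKO mice, beside 17.2% of all genes. In Cre- mice 2 were lower and 1 higher, beside 18.6%. Ackr3, a scavenging receptor of CXCL12, rose from 2.36 ± 0.677 to 7.95 ± 2.62 CPM in Cre- mice and from 1.46 ± 0.553 to 8.71 ± 3.21 CPM in BATdKO mice (SD, n = 6), with log2 fold changes of 1.75 (SE 0.25, adjusted p = 3.68e-05) and 2.56 (SE 0.28, adjusted p = 1.25e-06 in edgeR's test). Limch1 fell in Cre- mice by 0.83 on the log2 scale (adjusted p = 0.0466), a call lost without m1 or m3 at 30°C and without m1 or m4 at 8°C, with adjusted p up to 0.169. The list's median log2 fold change was -0.13 in Cre- and -0.52 in BATdKO mice, where that of all tested genes was -0.02 and -0.0026. Its gene with the largest change rose in the cold, whereas 8 of its 11 genes had values below 0 in each genotype, as had 54% and 50.5% of all tested genes.

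Of 9 genes in the table from a list of committed and regulatory preadipocyte markers, 5 had values below 0 with cold in each genotype. Such values were found for 54% of all tested genes in Cre- and 50.5% in BATdKO mice. In each genotype 1 was called higher and none lower, beside 5.57% of all genes called higher in Cre- and 3.76% in BATdKO mice. This was Adam12, a metalloprotease, which went from 1.32 ± 0.897 to 6.91 ± 1.32 CPM in Cre- mice (log2 fold change 2.09, SE 0.24, adjusted p = 1.39e-06) and from 3.00 ± 0.947 to 6.36 ± 0.950 CPM in BATdKO mice (1.04, SE 0.22, adjusted p = 0.00539). Of 10 adipogenic transcription factors, 4 were called higher in Cre- mice (Klf4, Cebpb, Tle3 and Ebf3) and 2 in BATdKO mice (Klf4 and Cebpb). None was called lower, and 3 of the 10 had values below 0 in each genotype. Ebf3, a paralogue of Ebf1, went from 6.88 ± 3.44 to 12.7 ± 3.01 CPM in Cre- mice (0.95, SE 0.27, adjusted p = 0.0351, and 0.101 without Cre- at 8°C m4), against the 0.03 of Ebf1. The Cebpb call in BATdKO mice was lost without m6 at 30°C and without m1, m2 or m4 at 8°C, with adjusted p up to 0.111. Cebpa, a factor of terminal adipocyte differentiation, was the 1 gene of this list called between genotypes at 8°C. It was also the 1 gene of the list with a value above 0 in that comparison. The other 9 had values below 0, and the list's median log2 fold change was -0.22. Of all genes, 0.697% were called higher there and 1.12% lower. Cebpa had 238 ± 8.49 CPM in BATdKO and 200.5 ± 10.2 CPM in Cre- mice (0.25, SE 0.07, adjusted p = 0.0871). The call was lost in 15 of 24 fits that left out a single mouse, taken from each of the 4 groups, with adjusted p up to 0.191. All 9 liver genes also had higher values in BATdKO mice at 8°C, none with an unadjusted p under 0.05. Their part in the Cebpa call was not tested.

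Of 12 tested general fibroblast genes, Loxl1, a matrix crosslinking enzyme, and Cxcl12, a stromal chemokine, rose with cold in both genotypes. Of all tested genes, 5.57% were called higher in Cre- and 3.76% in BATdKO mice. Most of the list went the other way, with 8 of 12 values below 0 in Cre- and 7 in BATdKO mice. Such values were found for 54% and 50.5% of all tested genes. At 30°C, 10 of the 12 were lower in BATdKO than in Cre- mice, and 5 of these had an unadjusted p under 0.05, beside 10.4% of all genes. Loxl1 went from 3.40 ± 1.60 to 8.41 ± 1.76 CPM in Cre- mice (log2 fold change 1.22, adjusted p = 0.00239) and from 2.30 ± 1.40 to 7.69 ± 1.30 CPM in BATdKO mice (1.78, adjusted p = 0.000144). Vim, the intermediate filament of mesenchymal cells, was lower in BATdKO than in Cre- mice at 8°C, with 47.0 ± 9.39 against 83.8 ± 14.3 CPM (log2 fold change -0.84, SE 0.23, adjusted p = 0.0707), and fell with cold in BATdKO mice by 0.87 on the log2 scale (adjusted p = 0.0236). The first of these calls was lost in 8 of 24 fits (without m1, m2, m3 or m4 of Cre- and without m3, m4, m5 or m6 of BATdKO at 8°C), with adjusted p up to 0.168, and the second in 0 of 24. Both comparisons share the BATdKO libraries at 8°C. Between genotypes at 30°C, edgeR called none of the 12485 genes, and DESeq2 called 1 gene of the committed preadipocyte list (higher) and 1 mural gene (lower) among these lists and those of vessel and immune cells.

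Vessel cells carry Cd34, Ly6a and Pdgfrb as well. Of 11 endothelial genes, 4 were called higher with cold in Cre- mice (Kdr, Pecam1, Emcn and Flt1) and 2 in BATdKO mice (Emcn and Kdr). None was called lower, and 5.57% and 3.76% of all tested genes were called higher. In each genotype 5 of the 11 had values below 0. The list's median log2 fold change was 0.31 in Cre- and 0.0092 in BATdKO mice. The Flt1 call was lost without m3 at 30°C and without m4 at 8°C, with adjusted p up to 0.108. Kdr, a VEGF receptor, went from 76.7 ± 3.42 to 104 ± 10.3 CPM in Cre- mice (log2 fold change 0.44, SE 0.08, adjusted p = 0.000495). Of 9 tested mural and smooth muscle genes, Rgs5, a pericyte gene, rose in Cre- mice by 0.58 (adjusted p = 0.0285) and Mcam fell there by 1.04 on the log2 scale (adjusted p = 0.0368, and 0.233 without Cre- at 30°C m1). In BATdKO mice edgeR and DESeq2 called none of the mural genes for cold, and 3 had an unadjusted p under 0.05, beside 17.2% of all genes. Of 8 macrophage genes in the table edgeR and DESeq2 called none in any of the 5 comparisons, and 1 had an unadjusted p under 0.05, for cold in BATdKO mice, where 17.2% of all genes had one (18.6% for cold in Cre- mice). Of 9 B and T cell genes, Ighm was the only one in the table and was higher in BATdKO than Cre- mice at 8°C by 1.46 (adjusted p = 5.07e-06). EdgeR also called it for cold in BATdKO mice (1.01, adjusted p = 0.000128) and for the interaction (1.32, adjusted p = 0.0185). Ebf1, which B cells also express, gave -0.15 between genotypes at 8°C, and the part of B cells in its level was not tested.

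Brown adipocyte genes also differed in level between cold and warm mice. Of 10 brown adipocyte genes, 5 rose and 1 fell with cold in each genotype, where 5.57% of all genes rose and 3.59% fell in Cre- mice and 3.76% rose and 3.31% fell in BATdKO mice. Ucp1, the uncoupling protein of heat production, rose by 3.10 in Cre- mice (adjusted p = 2.67e-05 in edgeR's test) and by 2.54 in BATdKO mice (adjusted p = 0.000389). Dio2, which activates thyroid hormone, rose by 4.56 and 4.05 on the same log2 scale. Without both 30°C libraries numbered m6, Ucp1 gave 3.89 in Cre- and 2.34 in BATdKO mice, and Dio2 gave 5.29 and 3.86. Adrb3, the β3 adrenergic receptor, was the 1 gene of the list called between genotypes at 8°C, with a log2 fold change of -0.98 (adjusted p = 0.0592), a call lost in 7 of 24 fits (without m1, m3 or m4 of Cre- and without m1, m2, m3 or m5 of BATdKO at 8°C) with adjusted p up to 0.16. Of 9 liver genes edgeR and DESeq2 called none in any of the 5 comparisons, and 3 had an unadjusted p under 0.05, all higher with cold in BATdKO mice, where 17.2% of all genes had one. Of 11 skeletal muscle fibre genes 2 were called lower with cold in Cre- mice by edgeR (Actn3, lost in 3 of 24 fits that left out a mouse, and Myoz1, lost in 13) and none by DESeq2, which called 1 lower between genotypes at 30°C. All 11 muscle genes had lower fitted values in BATdKO than Cre- mice at both temperatures, with a median log2 fold change of -3.05 at 8°C and -3.44 at 30°C. Of them, 9 and 10 had an unadjusted p under 0.05, beside 9.24% and 10.4% of all genes, and edgeR called none. At 30°C the Cre- libraries m1 and m3 summed to 3546 and 8319 CPM, and m4 and m6 to 4.10 and 3.40 CPM. The BATdKO libraries there ran from 17.1 to 575 CPM, and the group medians were 224 CPM (Cre-) and 191 CPM (BATdKO). This difference in muscle genes ran between the same groups as the genotype values of Pdgfra and Ly6a and the genotype call of Vim. Its part in them was not tested.

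How the markers varied from mouse to mouse was described after the mean of its group was taken from each library, by Pearson's r between each marker and the summed level of each list over the 24 libraries. These points share depth, composition and preparation, and r is given as a description. Cd34 (0.77), Dpt (0.72), Pi16 (0.70) and Ly6a (0.60) ran with the interstitial progenitor list. Over the 22 libraries above 3000000 counts the values were 0.75, 0.71, 0.74 and 0.58. Pdgfra was weaker with the same list (0.38, and 0.42 over the 22).

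Ebf1 (0.65), Pdgfrb (0.48) and Zfp423 (0.44) instead had their highest r, among the 6 lists plotted, with brown adipocyte genes, and 0.64, 0.63 and 0.52 over the 22 deeper libraries. With the list of committed and regulatory preadipocyte genes, which is not plotted, Pdgfrb had 0.68, Ebf1 0.55 and Zfp423 0.52 (0.65, 0.55 and 0.49 over the 22). The same markers ran against the general fibroblast list: Ebf1 had -0.72, Zfp423 -0.60 and Pdgfrb -0.48 (-0.69, -0.57 and -0.48 over the 22). For Ebf1 this was larger in size than its r with brown adipocyte genes. For the other markers, r with the general fibroblast list ran from -0.13 (Dpt) to 0.23 (Pi16). Dpp4 stood apart from the other markers: it ran with the liver list (0.81, and 0.72 over the 22) and against the endothelial list (-0.78, and -0.72). Its r with the interstitial progenitor list was -0.40. In each library the liver list summed to at least 31117 CPM, so that how much of the Dpp4 signal came from stromal cells cannot be read from these counts.

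**Figure D4:**
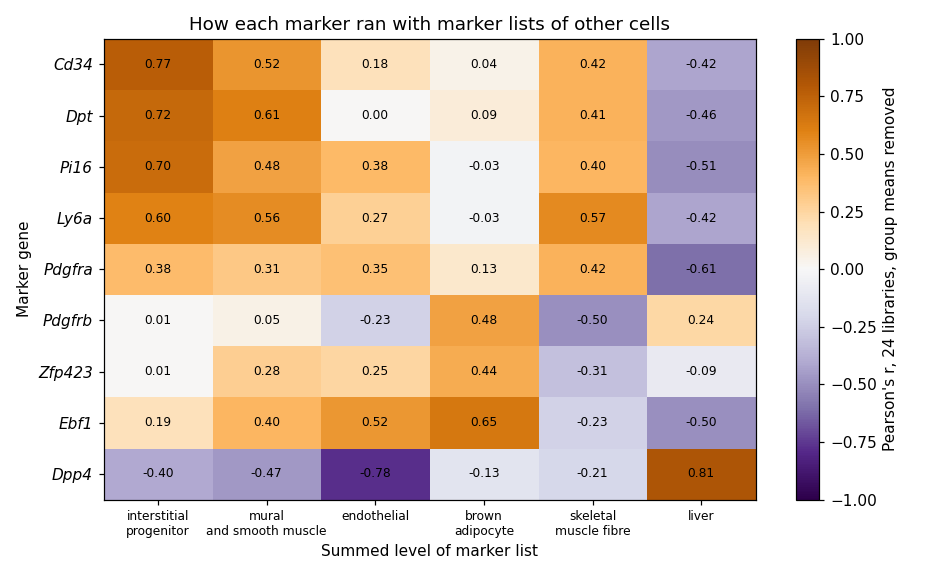
Pearson's r between each marker (rows) and the summed level of 6 marker lists of cell types (columns), on log2(CPM + 0.5) over 24 libraries with group means removed. Cd34, Dpt, Pi16 and Ly6a are highest with the interstitial progenitor list (0.77 to 0.60), Ebf1 is highest with brown adipocyte genes (0.65), and Dpp4 is highest with the liver list (0.81) and lowest with the endothelial list (-0.78).

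Between markers, the same measure was highest for Pdgfra with Pi16 (0.66), Cd34 with Dpt (0.66), Cd34 with Pi16 (0.64), Cd34 with Ly6a (0.63) and Pdgfra with Ly6a (0.61), and for Pdgfrb with Zfp423 (0.53). Among all tested genes with a mean of at least 20 counts, the gene most like Dpt and most like Cd34 was S100a6 (0.82 and 0.80). Lum, which encodes the fibroblast proteoglycan lumican, was most like Ly6a (0.80). Pparg, the adipocyte master regulator, was next to Sh3glb1 the gene most like Ebf1 (0.92 for each), and the liver genes Ugt2b34 (0.88) and Hc (0.86) were most like Dpp4. For Dpt the next gene was Retnla (0.80), for Cd34 Cdkn1c (0.78) and for Ly6a Tagln2 (0.78).

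Among the markers of lower level, Pdgfra was most like Fbxl7 (0.90) and Gm2962 (0.89), which went to 0.54 and 0.56 over the 22 deeper libraries. Pdgfrb was most like Gm14567 and Pdcd6 (0.85 for each, and 0.82 and 0.77 over the 22), Zfp423 like Rbm7 (0.84, and 0.78) and Rbm27 (0.81, and 0.79), and Pi16 like Arrb1 (0.86, and 0.85) and Gm16617 (0.78, and 0.63).

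In GRCm38 with the GENCODE vM21 annotation, Cd34 (ENSMUSG00000016494) lies on chromosome 1 from 194938819 to 194961279 and Dpt (ENSMUSG00000026574) on chromosome 1 from 164796644 to 164824266, both on the plus strand. Pdgfra (ENSMUSG00000029231) lies on chromosome 5 from 75152292 to 75198215 on the plus strand, and Dpp4 (ENSMUSG00000035000) on chromosome 2 from 62330073 to 62412231 on the minus strand. Exons of Pdgfra overlap Mir7025 on its own strand and Gm42802 and Gm42803 on the other, those of Cd34 overlap Gm16897, those of Pi16 AC162182.1 and those of Dpp4 Gm13561, all on the other strand. Counting by strand is not stated in the sources used here, so the reads of Dpp4 and Gm13561, which is in the table as well, cannot be told apart with certainty. Ly6a has close paralogues in the Ly6 family, to which its reads may be split.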

How the data were processed

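RNA of 24 libraries labelled brown fat was made into sequencing libraries with a kit that yields a single 3′ tag per transcript. Raw counts were deposited by the authors without scaling, after trimming of forward reads (BBDuk), alignment to GRCm38 (STAR) and assignment to genes (Rsubread). The annotation release, the strand setting and the rule that left genes out are not given in the sources used here. The study removed outliers for its own tests and names none in the text, so all 24 libraries were used, joined to the labels through their column names and grouped by genotype and temperature. The names m1 to m6 follow the mouse numbers of the labels.

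Counts were fitted with edgeR 4.0.16, with limma 3.58.1, under R 4.3.3. Of 12615 genes, 12608 had a symbol, 130 were removed by filterByExpr on the 4 groups and 12485 were tested. After TMM normalization a quasi-likelihood model with a mean per group was fitted to all 24 libraries, and p-values were adjusted over all tested genes by the Benjamini-Hochberg method, with the threshold of 0.1 used by the study. Standard errors are the absolute log2 fold change over the square root of F, and 95% intervals use the degrees of freedom of that test. P-values set each difference against a spread between mice of the same group that was estimated over all 4 groups together. CPM values use the TMM-scaled library size.

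Both count tests were first run on data simulated for genotype at 8°C: of 200 genes changed by a log2 fold change of 1, edgeR recovered 169 (12420 genes) and DESeq2 168 (12615 genes), with 0 of wrong sign and 33 and 31 unchanged genes called. Replicates were checked for libraries deposited more than once, and in the 60 pairs within groups the chi-square per gene ran from 2.61 to 63.2. Alternatives were DESeq2 (here 1.42.0), a tool named in the submitters' processing notes, RLE size factors, no filter, only the groups of a comparison, the libraries under 3000000 counts left out, both 30°C libraries numbered m6 left out, and each mouse left out in turn. The markers, lists and tests were chosen with earlier results of these data known. Named beside the 9 markers are Tbl1xr1, Tbl1x and Ucp1 as checks of the labels, from each list at most 4 genes per comparison that passed the threshold, by smallest p, and for each marker the 2 genes with the highest within-group correlation of log2 CPM (prior count 2).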

Additional observations from a re-analysis of the deposited data

Results flagged for a closer look

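In 48 groups of 6 mice (the 9 markers and the 3 genes that check the labels, in 4 groups each), the highest or lowest mouse was set against Dixon's 95% critical value for the gap to its neighbour over the range of the group. Chance gives about 1 such mouse in 20 groups, and 7 of the 48 groups had one. Among the markers, Pdgfra stood at 3.24 CPM in BATdKO at 8°C m5, above the next mouse at 2.14 CPM. Pi16 stood at 0.587 CPM in BATdKO at 8°C m6, below the next at 1.74 CPM, from 3 counts. In Cre- at 30°C m4, the shallowest library, Pdgfrb stood at 8.20 CPM above 3.81 CPM, from 6 counts, and Dpp4 at 20.5 CPM above 12.7 CPM, from 15 counts. Among the genes that check the labels, Cre- at 30°C m6 had 38.6 CPM of Tbl1xr1 above 24.6 CPM and 548 CPM of Ucp1 above 133 CPM, and BATdKO at 30°C m6 had 39.7 CPM of Tbl1x below 53.4 CPM. The part of depth or of the labels in these values was not tested.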

How the results depend on the processing

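Over the 5 comparisons and 9 markers, the alternatives other than single omissions gave 251 marker values with the direction and side of the threshold first found, 9 with the opposite sign and 1 call lost. With both 30°C libraries numbered m6 left out, the markers called for cold in BATdKO mice went from 2 to 1 (Pdgfra lost), genes called between genotypes at 30°C from 0 to 500 and for the interaction from 12 to 44, and signs turned for Dpp4 between genotypes at 30°C (0.030), Pdgfra (-0.021) and Ly6a (-0.10) for cold in Cre- mice, and Pi16 (0.039) and Dpp4 (-0.089) for cold in BATdKO mice. Without the libraries under 3000000 counts, 1 gene was called between genotypes at 30°C and Dpp4 turned there (0.017), as did Ly6a for cold in Cre- mice (-0.0052). Dpp4 for cold in BATdKO mice turned with no filter (-0.0073) and with only the groups of the comparison (-0.0027), which also gave 477 genes between genotypes at 8°C in place of 227. DESeq2 called 90 genes between genotypes at 30°C and 51 for the interaction. None of the values that turned was a call, and the cause of these changes was not tested. Over 24 omissions of a single mouse, the markers called numbered 0 to 2 for cold in Cre- mice and 1 to 2 in BATdKO mice, and all genes called 138 to 276 between genotypes at 8°C, 0 to 369 at 30°C, 791 to 1343 for cold in Cre- mice, 574 to 1069 in BATdKO mice and 7 to 37 for the interaction. Signs also turned in such omissions for Pi16 between genotypes at 8°C (-0.10 to 0.35), for Cd34 (-0.35 to 0.11), Dpt (-0.024 to 0.45), Ebf1 (-0.037 to 0.34) and Dpp4 (-0.10 to 0.052) at 30°C, for Pdgfra (-0.055 to 0.44), Ly6a (-0.089 to 0.30), Ebf1 (-0.15 to 0.23) and Dpp4 (-0.013 to 0.13) for cold in Cre- mice, for Pi16 (-0.17 to 0.22) and Dpp4 (-0.089 to 0.068) in BATdKO mice, and for Pdgfrb (-0.21 to 0.16), Ly6a (-0.069 to 0.32), Zfp423 (-0.29 to 0.027) and Dpp4 (-0.15 to 0.012) in the interaction. Pdgfra, Pdgfrb, Zfp423 and Pi16 had a median count of at most 20.5, at which small differences were not detectable. A fit with the sex of the library as a term was not run, since all 24 libraries held both Xist and Y-linked counts. No paired analysis was possible because the mouse numbers in the labels pair no mice between groups.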
